A study of Mus musculus with 22 samples.

Results

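The 9 genes described here, Mbp, Mog, Mag, Mobp, Cnp, Mal, Cldn11, Opalin and Ermn, encode proteins of myelin and of the oligodendrocytes that make it. They were chosen by name, as the rows of both count tables that carry one of these symbols, and all 9 were found among 24421 genes. Their transcripts were counted in total RNA of the right brain hemisphere of 22 C57BL/6JOlaHsd mice, an inbred laboratory strain without any transgene or treatment. The animals were 7 dominant males, 7 submissive males, 4 dominant females and 4 submissive females. Rank came from the tube test, where mice meet head-on in a narrow tube until 1 is pushed back, and the animals were then 10 to 12 weeks old. Each of 11 cages gave 1 dominant and 1 submissive mouse, so the cages held 7 pairs of males and 4 pairs of females. Cages are numbered as their mice are in the sample titles, male cages 1 to 7 and female cages 1 to 4, and the library names of female cages 3 and 4 are of another kind (Gr) than those of female cages 1 and 2. Some females of middle rank were put together in new groups and tested again, and the labels do not say which cages these were. The males and the females were deposited as separate tables, and their library names point to separate sequencing submissions. Sex and submission therefore cannot be told apart, and a difference between the tables is called a table difference below.

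Oligodendrocytes wrap axons of the central nervous system in many layers of their own plasma membrane, which speeds the conduction of action potentials. Compact myelin is held together by a small set of very abundant proteins, and further proteins sit on its outer face, on the layer next to the axon and in the channels of cytoplasm that remain between the layers. Myelin is still being added and remodelled in young adult mice, and its genes are, in the brain, expressed mainly by oligodendrocytes. In a whole hemisphere, fewer oligodendrocytes and less of a transcript per oligodendrocyte cannot be told apart.

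The stretches just upstream of the genes are shown because the genes are described as a set that moves together in some comparisons and apart in others. RefSeq start sites on GRCm38.p6 were matched by symbol for 8 of the 9 genes (not Mbp), and 250 bases before the start were searched on both strands. The letters searched were CTGGNAC, which is wider than the core bound by the oligodendrocyte factor MYRF (C or T at the place of N), ACAAAG, a site of SOX factors such as SOX10, CAGCTG, an E-box of the kind OLIG factors use, and TATAAA, the TATA box. No 2 of these overlapped in the sequences below, which are given 5′ to 3′ on the strand of the gene with matches in capitals. Mag and Cnp were lower in the female table, Opalin differed between male cages, Mobp was called only between the tables when some libraries were left out or trends removed, and Mog was called in no comparison below.
Mag (chr7:30914864-30915113, minus strand): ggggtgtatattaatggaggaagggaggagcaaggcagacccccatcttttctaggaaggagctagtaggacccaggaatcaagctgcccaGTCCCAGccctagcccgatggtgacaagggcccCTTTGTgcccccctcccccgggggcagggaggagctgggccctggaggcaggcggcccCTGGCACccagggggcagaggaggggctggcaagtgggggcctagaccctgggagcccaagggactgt
Cnp (chr11:100574689-100574938, plus strand): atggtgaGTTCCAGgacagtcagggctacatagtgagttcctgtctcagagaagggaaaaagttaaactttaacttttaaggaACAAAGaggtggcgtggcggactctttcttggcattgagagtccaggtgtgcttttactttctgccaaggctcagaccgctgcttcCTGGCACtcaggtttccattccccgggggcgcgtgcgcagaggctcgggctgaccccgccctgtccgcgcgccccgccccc
Opalin (chr19:41077114-41077363, minus strand): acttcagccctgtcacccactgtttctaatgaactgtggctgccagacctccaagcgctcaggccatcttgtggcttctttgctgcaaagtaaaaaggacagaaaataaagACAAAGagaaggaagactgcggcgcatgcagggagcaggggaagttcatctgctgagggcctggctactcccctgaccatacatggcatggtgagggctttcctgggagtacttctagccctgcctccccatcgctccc
Mog (chr17:37023399-37023648, minus strand): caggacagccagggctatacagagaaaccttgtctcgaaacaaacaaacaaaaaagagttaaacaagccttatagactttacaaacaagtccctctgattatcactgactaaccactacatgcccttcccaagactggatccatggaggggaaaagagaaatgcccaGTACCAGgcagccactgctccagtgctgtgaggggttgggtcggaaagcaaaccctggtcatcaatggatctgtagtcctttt
Mobp (chr9:120149492-120149741, plus strand): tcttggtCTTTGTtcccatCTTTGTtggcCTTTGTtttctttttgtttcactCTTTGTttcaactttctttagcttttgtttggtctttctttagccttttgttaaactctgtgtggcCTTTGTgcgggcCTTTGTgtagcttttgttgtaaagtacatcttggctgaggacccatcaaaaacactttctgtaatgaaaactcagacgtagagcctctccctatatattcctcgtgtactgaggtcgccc
CTGGNAC was present upstream of 3 of the 8 genes, with 2 matches each in Mag and Cnp and 1 in Mog. Of all 32851 upstream stretches of this length, 16.1% held it. With C or T at the place of N (CTGGCAC or CTGGTAC, counted after these matches were seen), Mag, Cnp and Mog had 1 match each, and 5.93% of all stretches held one, so that 1 of the 2 capitalised matches in Mag and in Cnp is outside the core. ACAAAG was present upstream of 4 of the 8 genes, with 6 matches in Mobp and 1 each in Mag, Cnp and Opalin, against 16.5% of all stretches. CAGCTG and TATAAA had no match in the 8 genes and were held by 13% and 12.4% of all stretches. Mbp was not searched.

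Each library held between 12403943 and 16488762 reads counted on genes, and the 9 genes together took 0.409 to 0.484% of the reads of a male and 0.357 to 0.424% of those of a female. Single counts ran from 253 for Opalin to 45405 for Mbp, so every gene was measured far above a floor of 3 counts. No exon base of the 9 genes lies in an exon of another annotated gene. Levels are given as CPM, the counts of a gene set to a common library size after scaling of the libraries by TMM. None of 40 further genes of myelin and mature oligodendrocytes had a mean below 1 CPM. The same held for the 10 genes each of neurons, astrocytes, microglia and brain endothelium, so this does not test the label of the set. Of 10 Schwann cell genes, which mark the myelin of peripheral nerves, 7 had a mean below 1 CPM. The 10 together summed to 65.4 to 99.6 CPM.

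Per kilobase of exon, levels over all 22 mice (mean ± SD) are given from the highest to the lowest, with the position of each gene on GRCm38. Mbp (chr18:82475123-82585637), the basic protein that glues the inner faces of the membrane together, was the highest at 365 ± 37.8 CPM per kb. Cnp (chr11:100574939-100581739), the cyclic nucleotide phosphodiesterase that keeps cytoplasmic channels open, followed at 186 ± 12.4 CPM per kb. Mal (chr2:127633226-127656695), a proteolipid of membrane traffic, stood at 131 ± 7.10. The ranges of 1 SD around these 3 means did not touch. Cldn11 (chr3:31149920-31164326), the claudin of the tight junctions between myelin layers, stood at 94.3 ± 6.12 and Mag (chr7:30899183-30914832), the adhesion protein of the layer next to the axon, at 92.7 ± 14.2. The order of this pair differed between the tables. In females the values did not overlap, at 67.1 to 80.1 CPM per kb for Mag and 84.3 to 108 for Cldn11, while in males they overlapped, at 93.3 to 110.5 for Mag and 88.0 to 103 for Cldn11. Mobp (chr9:120149742-120176091), another basic protein of compact myelin, stood at 69.9 ± 4.47 CPM per kb. Ermn (chr2:58045115-58052752), or ermin, a cytoskeletal protein of mature oligodendrocytes, stood at 40.5 ± 2.41 and Mog (chr17:37010740-37023398), a glycoprotein of the outermost face of myelin, at 40.2 ± 2.33, again within their spread. Opalin (chr19:41063420-41077113), a membrane glycoprotein of oligodendrocytes, was the lowest at 27.6 ± 3.48.

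**Figure D1:**
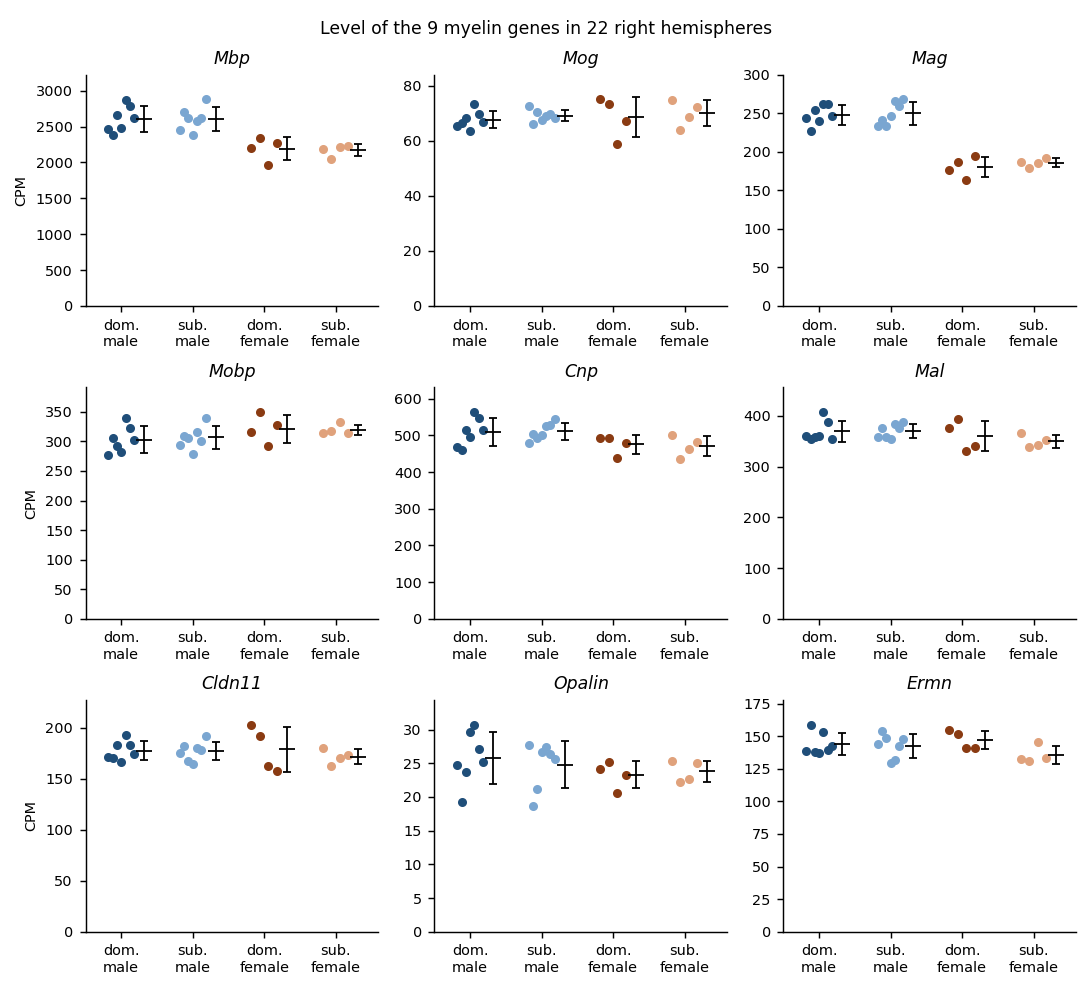
CPM of each gene in the 22 hemispheres by sex and rank (y axes start at 0), 1 point per mouse, with the mean ± SD beside the points. The ranks overlap within each sex in all 9 panels, while the female points of Mag (163 to 194 CPM) and Mbp (1967 to 2340 CPM) lie below every male point (226 to 268 and 2377 to 2879 CPM).

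Whether social rank goes along with the amount of myelin transcripts was first asked in the males. None of the 9 genes differed between dominant and submissive males by edgeR's quasi-likelihood test, and none reached an unadjusted p under 0.05, where 0% and 1.32% of all 14737 genes tested did. DESeq2 called none either. The ranks overlapped in CPM for all 9 genes, as for all but 0.00679% of genes. Mbp ran from 2377 over a median of 2612 to 2870 CPM in dominant males and from 2379 over 2614 to 2879 CPM in submissive males. The ranks covered the same range, and the log2 fold change of dominant over submissive was 0.00028 (SE 0.0473, adjusted p = 1.000, edgeR). Mog ran from 63.5 over 66.9 to 73.4 CPM in dominant and from 66.1 over 69.0 to 72.6 CPM in submissive males, which gave the most negative log2 fold change of the 9, -0.03 (SE 0.0374). Opalin gave the most positive one, 0.05 (SE 0.0996), and had the largest SE, with levels from 19.2 over 25.3 to 30.7 CPM in dominant and from 18.6 over 26.4 to 27.8 CPM in submissive males. The median of the 9 log2 fold changes was -0.0053, beside -0.0015 for all genes. Over the 9 genes the 95% intervals of the log2 fold change reached from -0.15 to 0.26, with both ends set by Opalin, and those of the other 8 lay between -0.12 and 0.11.

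In females, too, none of the 9 genes passed the test between ranks (0.0942% of 14865 genes did, 0.074% as higher and 0.0202% as lower in dominant females, and 10.5% had an unadjusted p under 0.05), and DESeq2 called none. The ranks overlapped in CPM for all 9 genes, while 5.5% of all genes did not overlap. Ermn came closest. Its levels were 155, 151, 141 and 141 CPM in the dominant mice of female cages 1, 2, 3 and 4, and 132, 131, 145 and 133 CPM in their submissive cage mates. The submissive female of cage 3 lay above 2 of the dominant females, and the other 3 lay below all of them. The log2 fold change was 0.12 (SE 0.0410), with an unadjusted p of 0.00913 that gave an adjusted p of 0.290 over all genes in edgeR. Within female cages 1 and 2 the log2 fold change of Ermn was 0.22, and within female cages 3 and 4 it was 0.02. The difference between these was not tested.

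The other 8 genes had log2 fold changes between ranks of females from -0.05 (Mag) to 0.06 (Cldn11), with 95% intervals between -0.18 and 0.18. Cldn11 stood at 203, 192, 163 and 158 CPM in the dominant and at 180, 162, 171 and 174 CPM in the submissive females, in the same order of cages. The dominant mice of female cages 1 and 2 were thus the highest of the 8 and 1 of those of female cages 3 and 4 the lowest. Mag stood at 177, 186, 163 and 194 CPM in the dominant and at 187, 179, 186 and 192 CPM in the submissive females, with the lowest and the highest level both in dominant animals. The median log2 fold change of the 9 genes was 0.01, beside -0.0020 for all genes. None of the 40 further genes of myelin and mature oligodendrocytes was called between ranks of either sex, nor any gene on the lists of precursors, newly formed oligodendrocytes, transcription factors, lipid synthesis or the node. On the other lists, Slc6a4 and Tph2, genes of serotonin neurons of the brainstem, were lower in dominant females (log2 fold changes -1.77 and -1.77, adjusted p = 0.0418 for each, edgeR), and no gene was called in males. The summed level of the brainstem and hypothalamus list was 48.9 to 94.1 CPM in dominant and 96.7 to 111 CPM in submissive females. The part of this in the values of Ermn was not tested.

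With all 22 mice in 1 fit, rank again called none of the 9 genes (0% of 15062 genes, 1.95% at an unadjusted p under 0.05), and none of the 9 had an unadjusted p under 0.05. The smallest was that of Ermn (log2 fold change 0.05, SE 0.0351, unadjusted p = 0.146, edgeR). The test of whether the rank difference itself differed between the tables called none of the 9 either (0% of 15233 genes, 3.32% unadjusted). Ermn had the largest such difference, 0.11 on the log2 scale (SE 0.0706, unadjusted p = 0.126). DESeq2 called none of the 9 in either fit.

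**Figure D2:**
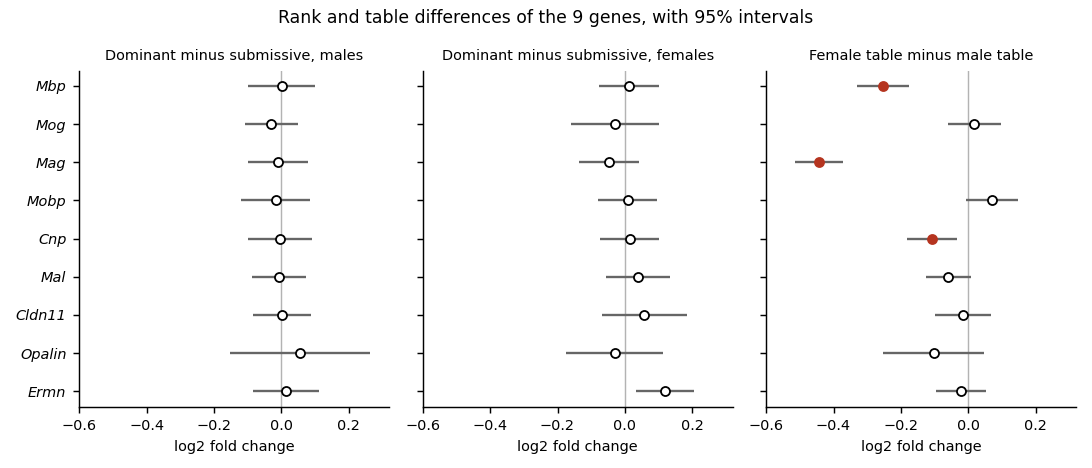
Log2 fold change of each gene (points) with its 95% interval (lines) for rank in males, rank in females and the table difference, on 1 common x axis, with filled red points for adjusted p under 0.05 in edgeR. All rank points are open and lie between -0.05 and 0.12, and the filled points are the table differences of Mag (-0.44), Mbp (-0.25) and Cnp (-0.11).

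Between cage mates the 9 genes differed in 1 direction in 3 of the 11 cages, and not in the same direction in each. In female cage 2 all 9 genes were higher in the dominant female, by a median of 0.19 on the log2 CPM scale. In female cage 3 all 9 were lower in the dominant female, by a median difference of -0.14. Among the males, all 9 were lower in the dominant mouse of male cage 7 (median -0.12), while 8 of 9 were higher in the dominant mouse of male cages 5 (median 0.10) and 6 (median 0.04). In the other 6 cages 3 to 6 of the 9 genes were higher in the dominant mouse. Dominant minus submissive for Mbp ran from -0.19 (male cage 2) to 0.16 (male cage 5) in males and from -0.17 (female cage 3) to 0.19 (female cage 2) in females. Summed levels of other lists differed between cage mates too. In female cage 2, the cerebellar genes summed to 1347 CPM in the dominant and 963 in the submissive mouse, the choroid plexus genes to 899 and 711, and the astrocyte genes to 3017 and 2765. In female cage 3, the choroid plexus genes summed to 779 and 1066 CPM and those of brainstem and hypothalamus to 48.9 and 111. In male cage 7, the choroid plexus genes summed to 687 and 903 CPM and the cerebellar genes to 909 and 1086. In male cage 5, the choroid plexus genes summed to 1133 CPM in the dominant and 857 in the submissive mouse, while the cerebellar genes summed to 717 and 1097. In male cage 1, where the median difference of the 9 genes was -0.04, the cerebellar genes summed to 148 and 1128 CPM. The part of these in the differences of the 9 genes was not tested. These are values of single pairs of animals without replication, and the 9 genes of a pair share its libraries and scaling.

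**Figure D3:**
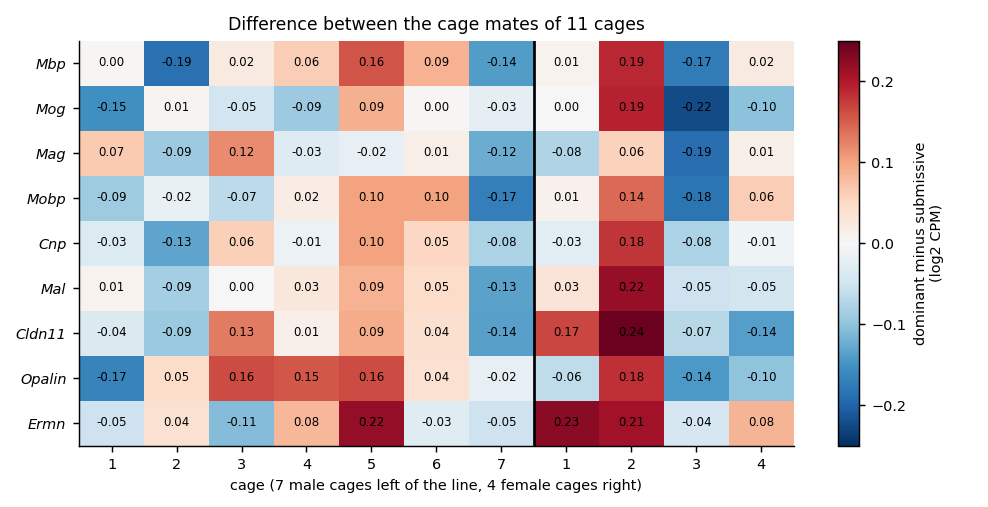
Difference of log2 CPM between the dominant and the submissive mouse of each cage (columns, 7 male cages left of the line and 4 female cages right) for each gene (rows), red where the dominant mouse was higher. Of the 11 columns 3 are of 1 colour, red for female cage 2 (0.06 to 0.24) and blue for female cage 3 (-0.22 to -0.04) and male cage 7 (-0.17 to -0.02), and the others and all rows are mixed.

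Between the tables, 3 of the 9 genes were called in edgeR, all of them lower in females, where 36.7% of 15062 genes were called, 18.1% as higher and 18.5% as lower. The same 3 genes had an unadjusted p under 0.05, as 45.3% of all genes did. The counts therefore do not set the 9 genes apart from the rest. Mag ran from 226 over a median of 246 to 268 CPM in males and from 163 over 186 to 194 CPM in females, so that every female lay below every male. Its log2 fold change was -0.44 (SE 0.0348, adjusted p = 2e-10), a change of -26.4%, and 4.12% of all genes differed as much in either direction. Mbp ran from 2377 over 2613 to 2879 CPM in males and from 1967 over 2210 to 2340 CPM in females, again without overlap. Its log2 fold change was -0.25 (SE 0.0374, adjusted p = 5.86e-06), a change of -16.2%, and 17.0% of all genes differed as much. These were the 2 of 9 genes whose tables did not overlap, against 6.15% of all genes.

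Cnp was the third gene called, with 460 over 509 to 563 CPM in males and 436 over 480 to 501 CPM in females. The tables overlapped, 8 males lay above all females and 2 females below all males. Its log2 fold change was -0.11 (SE 0.0359, adjusted p = 0.0198), and 49.5% of all genes differed as much. The call was lost at a similar size in dominant mice alone (-0.09, adjusted p = 0.299), with the libraries of cage mates summed (-0.10, adjusted p = 0.0735), without the mice of female cages 3 and 4 (-0.09, adjusted p = 0.186), without dominant female 3 (-0.09, adjusted p = 0.0586) and without submissive female 2 (-0.09, adjusted p = 0.0617). Without the mice of male cages 5 to 7 the value was -0.06 (adjusted p = 0.161). The other 6 genes did not pass the test. Opalin had a log2 fold change of -0.10 (SE 0.0730), Mal of -0.06 (SE 0.0329), Ermn of -0.02 (SE 0.0364), Cldn11 of -0.02 (SE 0.0402) and Mog of 0.02 (SE 0.0378). Mobp had the only value above that of Mog, 0.07 (SE 0.0375, adjusted p = 0.148), and was called as higher in females once each library's trend on GC content was removed (0.10, adjusted p = 0.0454), with GC and exon length trends removed (0.11, adjusted p = 0.0326) and without the mice of male cages 5 to 7 (0.12, adjusted p = 0.00596). Without the mice of male cages 1 to 4, Opalin (-0.20, adjusted p = 0.00707) and Mal (-0.11, adjusted p = 0.0291) were called as lower in females, as was Mal without the mice of female cages 1 and 2 (-0.12, adjusted p = 0.0189).

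The set thus did not move as a block between the tables, and this can be read from raw counts within a library, where no scaling enters. For every 100 reads of Mog there were 321 to 394 reads of Mag in males and 236 to 289 in females. For every 100 reads of Cnp there were 46.5 to 52.2 reads of Mag in males and 35.9 to 41.0 in females, and for every 100 reads of Mobp 74.1 to 88.4 and 53.4 to 61.4. None of these ranges overlapped. Mag had the largest table difference of the 9 genes, so these ratios restate that difference and are no separate test. Mbp made up 57.4 to 59.4% of the reads of the 9 genes in males and 54.8 to 56.7% in females. Mag has the most GC-rich exons of the 9 genes at 56.7% and Ermn the least at 38.0%. With the GC trend removed the log2 fold change of Mag was -0.47, and with GC and exon length trends removed it was -0.50. Over all 13 alternatives it lay between -0.51 and -0.40 and stayed called. Mbp stayed called as well, between -0.32 and -0.17, with the smallest difference once the trend on exon length was removed.

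Other genes of the oligodendrocyte lineage went both ways between the tables, as all genes did (18.1% called as higher and 18.5% as lower in females). The counts in this paragraph are to be set beside these shares. Those of the 40 further genes of myelin and mature oligodendrocytes lie near them. Of 40 further genes of myelin and mature oligodendrocytes 8 were higher and 7 lower in females (median log2 fold change 0.0018, beside -0.0028 for all genes), with the smallest p for Nkain1 (0.21) and for Gpr37 (-0.24), a receptor of myelinating cells. Of 15 genes listed under myelin lipid synthesis, a list not limited to enzymes of synthesis, 3 were higher and 6 lower. The smallest p was that of Sgms1, a sphingomyelin synthase (0.23), among the higher and of Pex5l, which is not such an enzyme (-0.18), among the lower. Of 11 genes of newly formed oligodendrocytes 3 were higher and 5 lower, led by Bcas1 (0.15) and Itpr2 (-0.56), a calcium release channel. Of 12 oligodendrocyte transcription factors 2 were higher and 4 lower, led by Sox10 (0.22) and Zfp488 (-0.50). Of 12 precursor genes 6 were lower, none was higher and 6 were not called (median -0.20), where 18.5% of all genes were called as lower, with the smallest p for Pdgfra, the growth factor receptor that marks these cells, at 105 CPM in males and 88.5 in females (-0.25). The summed level of the 12 genes differed among the males too, at 686 to 804 CPM in male cages 1 to 4 and 598 to 650 in male cages 5 to 7, against 515 to 575 in females.

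On the side of the axon, 13 genes of the node of Ranvier and the paranode were tested, and 2 were higher and 7 lower, where 18.1% of all genes were called as higher and 18.5% as lower, with the smallest p among the lower ones for Cntnap2 (-0.30). The counts that follow stand beside 36.7% of all genes called, and several lie near that share. Among markers of other cells, 5 of 10 astrocyte genes were called (1 higher, 4 lower, led by Ndrg2 and Fgfr3), 4 of 10 microglial genes (2 higher, 2 lower, led by Cx3cr1 and Csf1r), none of 10 endothelial genes, 3 of 10 neuronal genes (2 higher, 1 lower, led by Snap25 and Map2) and 1 of 5 Schwann cell genes tested (Drp2, lower). Among markers of brain regions, 5 of 12 cerebellar genes were called, all higher (Barhl2 with the smallest p), 2 of 10 choroid plexus genes, both lower (Kl), 3 of 12 genes of brainstem and hypothalamus, all lower (Slc6a5), and 4 of 12 genes of cortex and striatum (3 higher, 1 lower, led by Cux2 and Rorb). The cerebellar genes summed to 148 to 1244 CPM in males, with the lowest values in dominant males 1 (148 CPM) and 5 (717 CPM), and to 963 to 1532 CPM in females. The part of these shifts in the differences of Mag, Mbp and Cnp was not tested.

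**Figure D4:**
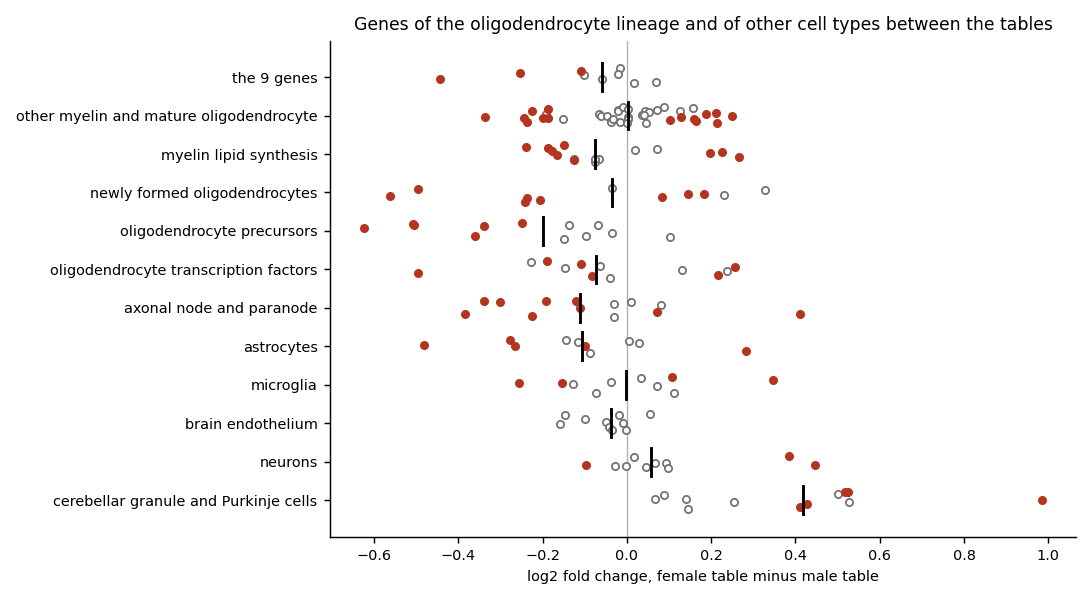
Log2 fold change between the tables (females over males, x axis) of each gene of the set and of 11 lists of genes of the oligodendrocyte lineage, the axon and other cells (rows), filled red for adjusted p under 0.05 in edgeR, with a bar at each list's median. Mag is the leftmost point of its row at -0.44, the precursor row holds 6 filled points that all lie left of 0, and the rows of the other lineage lists hold filled points on both sides.

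Within the males, 1 of the 9 genes differed between cages by edgeR's test of the 7 cages against the spread between cage mates, where 5.71% of 15304 genes were called. This was Opalin (F = 9.90, adjusted p = 0.0128). Its levels in the dominant and the submissive mouse were 24.7 and 27.8 CPM in male cage 1, 19.2 and 18.6 in male cage 2, 23.7 and 21.2 in male cage 3, 29.7 and 26.7 in male cage 4, 30.7 and 27.4 in male cage 5, 27.2 and 26.4 in male cage 6, and 25.3 and 25.6 in male cage 7. Both mice of male cage 2 lay below all other males, and those of male cage 3 were the next lowest. Without male cage 2 the call was lost (adjusted p = 0.209), as it was without dominant male 2 (0.0790) or submissive male 2 (0.0619), the animals of that cage. Ermn, on the other hand, was highest in both mice of male cage 2 (159 and 154 CPM) and did not pass the test between cages (adjusted p = 0.391). Cage, day of sacrifice and position among the libraries cannot be told apart.

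The other 8 genes were not called between male cages. Cnp (unadjusted p = 0.0153, adjusted p = 0.125) and Mobp (unadjusted p = 0.0302, adjusted p = 0.176) came closest, where 21.8% of all genes had an unadjusted p under 0.05. The mean of the cage mates for Cnp was 473.5 to 504 CPM in male cages 1 to 4 and 530.0 to 545 CPM in male cages 5 to 7. Mag, Mbp, Mal, Mobp and Cldn11 likewise had their highest 3 cage means in male cages 5 to 7, and Mog, Opalin and Ermn did not. Where 5.71% of all genes had an adjusted p under 0.05, 3 of 11 genes of newly formed oligodendrocytes were called between male cages (Gpr17, Itpr2 and Nfasc), 3 of 12 precursor genes (Pcdh15, Cspg4 and Ptprz1), 2 of 12 transcription factors (Myrf and Tcf7l2), 1 of 40 further myelin genes (Omg), none of 15 genes of lipid synthesis and 2 of 13 node genes, Cntn2 among them. Of the other cells and regions, 2 of 10 neuronal genes, 2 of 12 of cortex and striatum, 2 of 13 of brainstem and hypothalamus, 1 of 5 of Schwann cells, 1 of 10 astrocyte and 1 of 10 endothelial genes were called, and none of the microglial, cerebellar or choroid plexus genes. The genes named here were chosen after their values were seen.

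**Figure D5:**
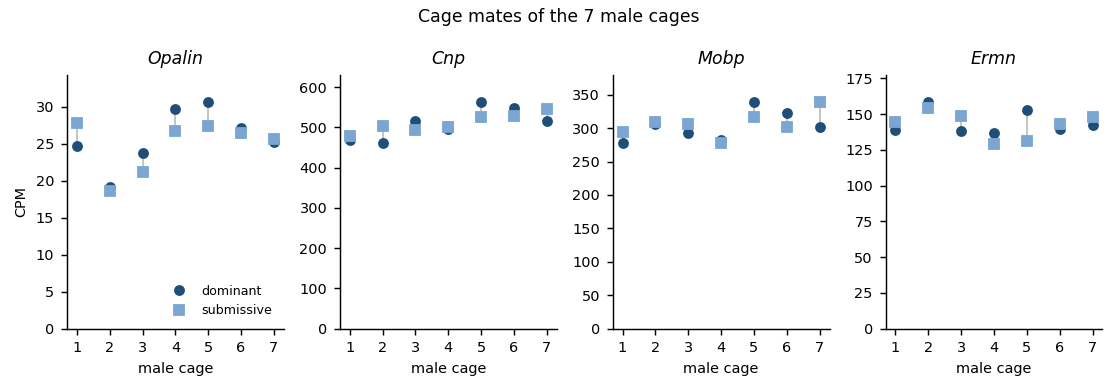
CPM of Opalin, Cnp, Mobp and Ermn in the dominant (dark circles) and submissive (light squares) mouse of each male cage, with a line between cage mates and y axes from 0. Both mice of male cage 2 are the lowest for Opalin (19.2 and 18.6 CPM) and the highest for Ermn (159 and 154 CPM), while for Cnp the 6 mice of male cages 5 to 7 lie above the other 8.

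Among the 4 female cages none of the 9 genes was called (0.0725% of 15177 genes), and DESeq2 called none. In edgeR, Cldn11 and Mog had an unadjusted p under 0.05, as 5.08% of genes did, with adjusted p = 0.918 and 0.970. The means of the cage mates for Mog were 74.9 CPM in female cage 1, 68.6 in female cage 2, 63.6 in female cage 3 and 69.6 in female cage 4. Against female cages 1 and 2, female cages 3 and 4 had a log2 fold change of -0.11 for Mal (SE 0.0383, unadjusted p = 0.00781, adjusted p = 0.762) and of -0.15 for Cldn11 (SE 0.0513, unadjusted p = 0.00945, adjusted p = 0.787), and none of the 9 genes was called by edgeR (0.00667% of 14998 genes, 5.55% at an unadjusted p under 0.05) or by DESeq2. Mal stood at 376, 367, 394 and 339 CPM in female cages 1 and 2 and at 330, 342, 341 and 352 CPM in female cages 3 and 4, so that 1 female of cages 1 and 2 lay within the range of the others. The 4 females of each kind came from 2 cages, so these p-values may be too small.

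Across the 14 males, most of the 9 genes varied together. Of the 36 pairs, 33 had a positive Pearson's r of log2 CPM (median 0.49, Spearman's rho 0.45), and 14 had an adjusted p under 0.05 over the 36 pairs in a two-sided permutation test, as 14 did for rho. The highest was Mag with Cnp (r = 0.88, rho = 0.88, adjusted p = 0.00144 and 0.00432), which was 0.81 without the 2 males farthest from the median of Mag, 0.69 within male cages 1 to 4 and 0.57 within male cages 5 to 7. All 14 pairs were among Mbp, Mag, Mobp, Cnp, Mal and Cldn11, while Mog, Opalin and Ermn had none. Within male cages 1 to 4 the r of these 14 pairs ran from 0.0037 (Mobp with Cnp, 0.71 over all males) to 0.74 (Mbp with Mal, 0.81 over all males). Within male cages 5 to 7 it ran from 0.45 (Mbp with Mag) to 0.97 (Mobp with Cldn11). Opalin and Ermn had the lowest value of all pairs (r = -0.54, rho = -0.40, adjusted p = 0.104 and 0.272), which was -0.07 without the 2 males farthest from the median of Opalin. It was -0.81 within male cages 1 to 4 and 0.34 within male cages 5 to 7, so the pooled value rests on those samples. The median over the pairs was 0.22 within male cages 1 to 4 and 0.67 within male cages 5 to 7. Taking the difference of cage mates over the 7 male cages, the median r was 0.53 with 34 of 36 pairs positive, and no pair had an adjusted p under 0.05 in an exact permutation test. Cage mates are not independent of each other, and the 9 genes share the libraries and their scaling.

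Across the 8 females, 35 of 36 pairs were positive (median r 0.63, rho 0.43), and 4 had an adjusted p under 0.05 for r and 6 for rho in a two-sided exact permutation test. The count of 4 for r was 0 without dominant female 3, dominant female 4, submissive female 1, 2 or 3, and 2 without submissive female 4. For r, these pairs were Mog with Opalin (r = 0.95, rho = 0.83), Mog with Cnp (0.92 and 0.88) and Cnp with Opalin (0.91 and 0.95), each with an adjusted p of 0.0179 for r and of 0.0692, 0.0435 and 0.0402 for rho in the exact permutation test. Mal with Cldn11 followed (0.89 and 0.88, adjusted p = 0.0350 and 0.0435, exact permutation test). Without the 2 females farthest from the median of the first gene of each pair, r was 0.80, 0.83, 0.86 and 0.83 for these 4, while the median of all 36 pairs was 0.16 and 22 were positive. Dominant female 3 had the lowest level of the 8 females for Mbp, Mog, Mag, Mobp, Mal and Opalin. Mog and Opalin, which had no pair past the threshold in males, had 2 each in females, and this difference was not tested. The 2 kinds of female cages hold 4 mice each, too few for a correlation within them.

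The mean log2 CPM of the 9 genes, with the mean of each table subtracted, was taken as the pattern of the set over the 22 mice. Mal (r = 0.91), Cnp (0.91) and Mbp (0.86) had the highest r and Ermn the lowest (0.24, against 0.60 for Opalin, the next lowest). Each of the 9 genes is part of this mean, which raises its r, so these values cannot be set beside those of other genes. Among 11700 genes with at least 5 CPM on average in each table, the 10 other genes most like it were Qdpr (0.86), Sccpdh (0.82), Bcas1 (0.82), Tpt1 (0.80), Scd1 (0.78), Sirt2 (0.76), Slc16a1 (0.76), Arl4c (0.76), Fam20b (0.75) and Canx (0.75). Qdpr, a reductase of the biopterin pathway, stands on the list of further mature oligodendrocyte genes and Bcas1 on that of newly formed ones, whose other members ran from -0.69 (Itpr2) to 0.48 (Fyn), with a median over the list of -0.10. Scd1 is a desaturase of fatty acid synthesis, Sirt2 a deacetylase and Slc16a1 a lactate transporter. The median over the list of further myelin genes was 0.56, that over lipid synthesis 0.27, over the transcription factors -0.06, over the node genes -0.17 and over the precursors -0.38, beside 0.03 for all genes. Lists of other cells and regions had medians of 0.37 (neurons), 0.33 (astrocytes), 0.29 (brainstem and hypothalamus), 0.28 (choroid plexus), 0.24 (microglia), 0.18 (cerebellum), 0.13 (endothelium) and -0.03 (cortex and striatum), and the 1 Schwann cell gene with enough reads had -0.54. These medians pool the tables, and some genes differed between them. Of the neuronal genes, Slc17a7 had r = 0.65 in males and -0.44 in females, while Snap25 had 0.47 and 0.57. Of the transcription factors, Tcf7l2 had -0.67 and 0.24, while Olig1 had 0.54 and 0.61. Of the node genes, Cntn2 had -0.66 and 0.15, while Scn8a had -0.42 and -0.12. Medians within each table are not reported here. The values describe these 22 libraries and carry no test.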

How the data were processed

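Total RNA of 22 right hemispheres was sequenced. According to the submitters' processing notes and the study's methods, the authors checked reads with FastQC 0.11.8, trimmed them with cutadapt 1.15, used STAR 2.6.0a for alignment to GRCm38 (mm10) and featureCounts 1.6.2 for counts per gene. The deposited values are raw counts, 1 table for males and 1 for females, and the strand setting of the counting is not given in the sources used here. Spreadsheet software had turned 27 gene symbols into dates, none of them a symbol described here.

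Counts of all genes were tested with edgeR 4.0.16 in R 4.3.3 (TMM scaling, filterByExpr at 10 counts and 15 in total, quasi-likelihood F-test, Benjamini-Hochberg adjustment over all genes tested, threshold 0.05). Rank was tested within each table, with table as a covariate over both, and as an interaction with table. Cage was tested after rank. Log2 CPM used a prior count of 2. Exon lengths were those given with the deposited counts, and GC content came from the transcripts of GENCODE vM21. The script was tested on simulated data. P-values set a difference against the spread between these samples, and the main fits of rank and table treat cage mates as independent. The floor of 3 counts was a set value, for libraries of 12403943 to 16488762 reads. Replicates of a group differed by more than sampling noise (54 pairs, lowest chi-square per gene 1.81).

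Cage mates share a cage by their library names and were sacrificed together. Their deviations from the group means correlated at a mean of 0.162 in males (-0.0334 to 0.246) and 0.0194 in females, against -0.0269 and -0.0065 for other pairs. The fit with cage as a block was an alternative, as were DESeq2 1.42.0, its size factors, no filter, removal of trends on exon length or GC content, subsets of cages and ranks, and leaving out each library. The rule for named genes takes the 9 genes, for each list the called gene of smallest p, higher and lower, and the 10 genes most like the set's mean. Further genes called between male cages were named after their values were seen. Members and lists were chosen with earlier results of these data known. Values of some listed genes are not reported here.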

Additional observations from a re-analysis of the deposited data

Results flagged for a closer look

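Ermn in submissive female 3, of female cage 3, stood at 145 CPM, apart from the other submissive females at 131, 132 and 133 CPM. The gap to the nearest was 0.857 of the range of the group, above Dixon's critical value of 0.829 for 4 samples. It was the only value to pass among 36 groups tested (9 genes in 4 groups), and chance flags about 1 in 20 groups. Without this mouse or any other single female, the log2 fold change of Ermn between ranks lay between 0.09 and 0.16.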

How the results depend on the processing

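None of the 9 genes was called between ranks under any alternative, the replicate block (cage as a factor, members called 0) included, while the block moved the number of all genes called in females from 14 to 38. For the table difference the number of the 9 genes called was 5 without the mice of male cages 1 to 4, and 2 to 3 when each library was left out. For male cages it was 0 without male cage 2, and 0 to 1 when each library was left out. Pairs past the threshold numbered 0 for differences of cage mates, and 13 to 18 in males and 0 to 5 in females when each library was left out. GC content, summed cage mates and subsets of cages in the table and cage comparisons were chosen after seeing the data.

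Log2 fold changes near 0 changed sign, none of them called. In males Mbp gave -0.00051 in DESeq2, -0.00051 with its size factors, -0.00053 without a filter and -0.00012 with the block. Within male cages 1 to 4 Mbp gave -0.024, Mag 0.017 and Ermn -0.0093, and within male cages 5 to 7 Mog gave 0.021, Mobp 0.0087, Cnp 0.023 and Cldn11 -0.0021. In females with the exon length trend removed, Mbp, Mobp and Opalin gave -0.025, -0.0013 and 0.011, and with the block added -0.028, -0.0030 and 0.013. In female cages 1 and 2 Mog gave 0.094 and Opalin 0.059, and in female cages 3 and 4 Mbp -0.078, Mobp -0.065, Cnp -0.050, Mal -0.055 and Cldn11 -0.11. Between tables Mog gave -0.0098 with the exon length trend removed, -0.0060 without male cages 1 to 4 (Mobp -0.0019) and -0.044 without female cages 1 and 2. Cldn11 gave 0.015 in dominant mice (Ermn 0.035), 0.017 with the GC trend removed (Ermn 0.038), 0.015 without male cages 5 to 7 and 0.052 without female cages 3 and 4, and Ermn 0.023 with GC and length trends removed. The cause was not tested.

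Leaving out each library, the values in males ran from -0.024 to 0.026 for Mbp, -0.026 to 0.0084 for Mag, -0.046 to 0.0082 for Mobp, -0.031 to 0.017 for Cnp, -0.031 to 0.0045 for Mal, -0.019 to 0.021 for Cldn11, -0.0043 to 0.11 for Opalin and -0.013 to 0.032 for Ermn. In females they ran from -0.022 to 0.060 for Mbp, -0.077 to 0.036 for Mog, -0.036 to 0.050 for Mobp, -0.021 to 0.050 for Cnp, -0.0089 to 0.079 for Mal, -0.0090 to 0.11 for Cldn11 and -0.072 to 0.024 for Opalin. Between tables they ran from -0.00052 to 0.050 for Mog and -0.046 to 0.0025 for Cldn11.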
